A study of Homo sapiens with 4 samples.

Results

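The transcripts described here are those of 32 genes of the endoplasmic reticulum (ER) and the early secretory pathway. They were taken by gene symbol out of 18276 genes in the count table. The list was chosen with earlier results of these data known, so its shares beside those of all genes are a description. All 32 were found, and they were grouped by role into ER chaperones, disulfide isomerases, the translocon with signal peptidase, the enzyme of N-linked glycosylation, ER export, and ER shape with a membrane protease. Their RNA was counted in MDA-MB-231 cells, a human breast cancer line, in 2 libraries recovered with 5 µg of an antibody against SF3B6 (IP) and in 2 input libraries. All 4 libraries come from cells that were irradiated once (400 mJ/cm2), lysed and treated with DNase and then micrococcal nuclease, so IP and input RNA alike is fragmented. SF3B6 belongs to SF3b, the splicing complex with which U2 snRNP holds an intron's branch point, and the comparison asks which transcripts were recovered with it. An IgG control is named in the labels, but input was the one reference used here, so recovery by the antibody's own target and recovery by beads or unspecific antibody cannot be told apart.

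Proteins that enter the secretory pathway are made on ribosomes at the ER membrane, pass through the Sec61 channel, lose their signal peptide, receive N-linked glycans and are folded by chaperones and disulfide isomerases before they leave in COPII-coated vesicles. Most chaperones of the ER lumen are induced together when unfolded protein accumulates, through a promoter element named ERSE (ER stress response element). Their messengers, like those of most human genes, are spliced in the nucleus before they are translated.

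Total gene counts were 317190 for input 1, 519836 for input 2, 55492 for SF3B6 IP 1 and 30431 for SF3B6 IP 2. A count of 0 allowed up to 9.46, 5.77, 54.1 and 98.6 CPM (here counts per 1000000 gene counts) in the same order. The CPM of single transcripts below are instead per scaled library size over the tested genes, 45416 for SF3B6 IP 1 and 22950 for SF3B6 IP 2. On that scale the limits are higher. Such limits and the intervals below cover counting error only. The design text calls the libraries of a group biological replicates. Since each IP library was less deep than each input, pull-down and depth cannot be told apart. Of 6 genes chosen as marks of this mesenchymal-like line, all had counts in both inputs, at 1435 and 2580 in sum with AXL and VIM as the highest. Of 9 epithelial or luminal marker genes, the keratins KRT8 (171 and 253 input counts), KRT18 (93 and 175) and KRT19 (64 and 127) and the receptor ERBB2 (76 and 147) were counted in both inputs. CDH1, EPCAM and GATA3 had at most 15 counts in a library, and ESR1 and PGR have no row in the table used here. The whole list summed to 411 and 724 input counts. The 7 blood cell markers had 0, 1, 3 and 1 counts in input 1, input 2, SF3B6 IP 1 and SF3B6 IP 2.

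As a group, the ER and secretory transcripts took a smaller share of the IP libraries than of the inputs. Their counts came to 278 in SF3B6 IP 1, 152 in SF3B6 IP 2, 2767 in input 1 and 4782 in input 2. These sums were 0.501% and 0.499% of the IP counts, against 0.872% and 0.920% of the input counts, so both IP libraries lay below both inputs. Of the 32, 22 had enough counts to be tested (edgeR's quasi-likelihood test with Benjamini-Hochberg adjustment over all 3668 tested genes, at 0.05), of which 3 fell and 0 rose. The 3 were CALR, MBTPS1 and RTN3, of which MBTPS1 and RTN3 entered the test through the inputs alone and so could be called only as lower. The counts and medians over the 22 include both, come from a list chosen with earlier results known, and are a description. Of all tested genes 1.36% were lower (1.44% of the protein-coding ones), 2.70% were higher and 4.06% passed in either direction. At an unadjusted p under 0.05, 8 of the 22 were lower and 0 were higher, where 7.72% and 7.93% of all tested genes were. DESeq2 gave an adjusted p for 16 of the 22 and called 0. CALR was among the 16, but MBTPS1 and RTN3 were not, so DESeq2 did not assess these calls. The median log2 fold change of the 22, IP over input, was -0.62, beside -0.06 for all tested genes. The fold change was below 0 for 19 of the 22 and for 53.4% of all tested genes. Both IP libraries lay below both inputs, in CPM after TMM (trimmed mean of M-values) scaling, for 14 of the 22 and 28.5% of all tested genes, and above both for 1 and 20.9%. The tested transcripts were better counted than most, with a median of 233 counts over both inputs beside 86 for all tested genes, and the part of this in the number of calls was not tested.

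**Figure D1:**
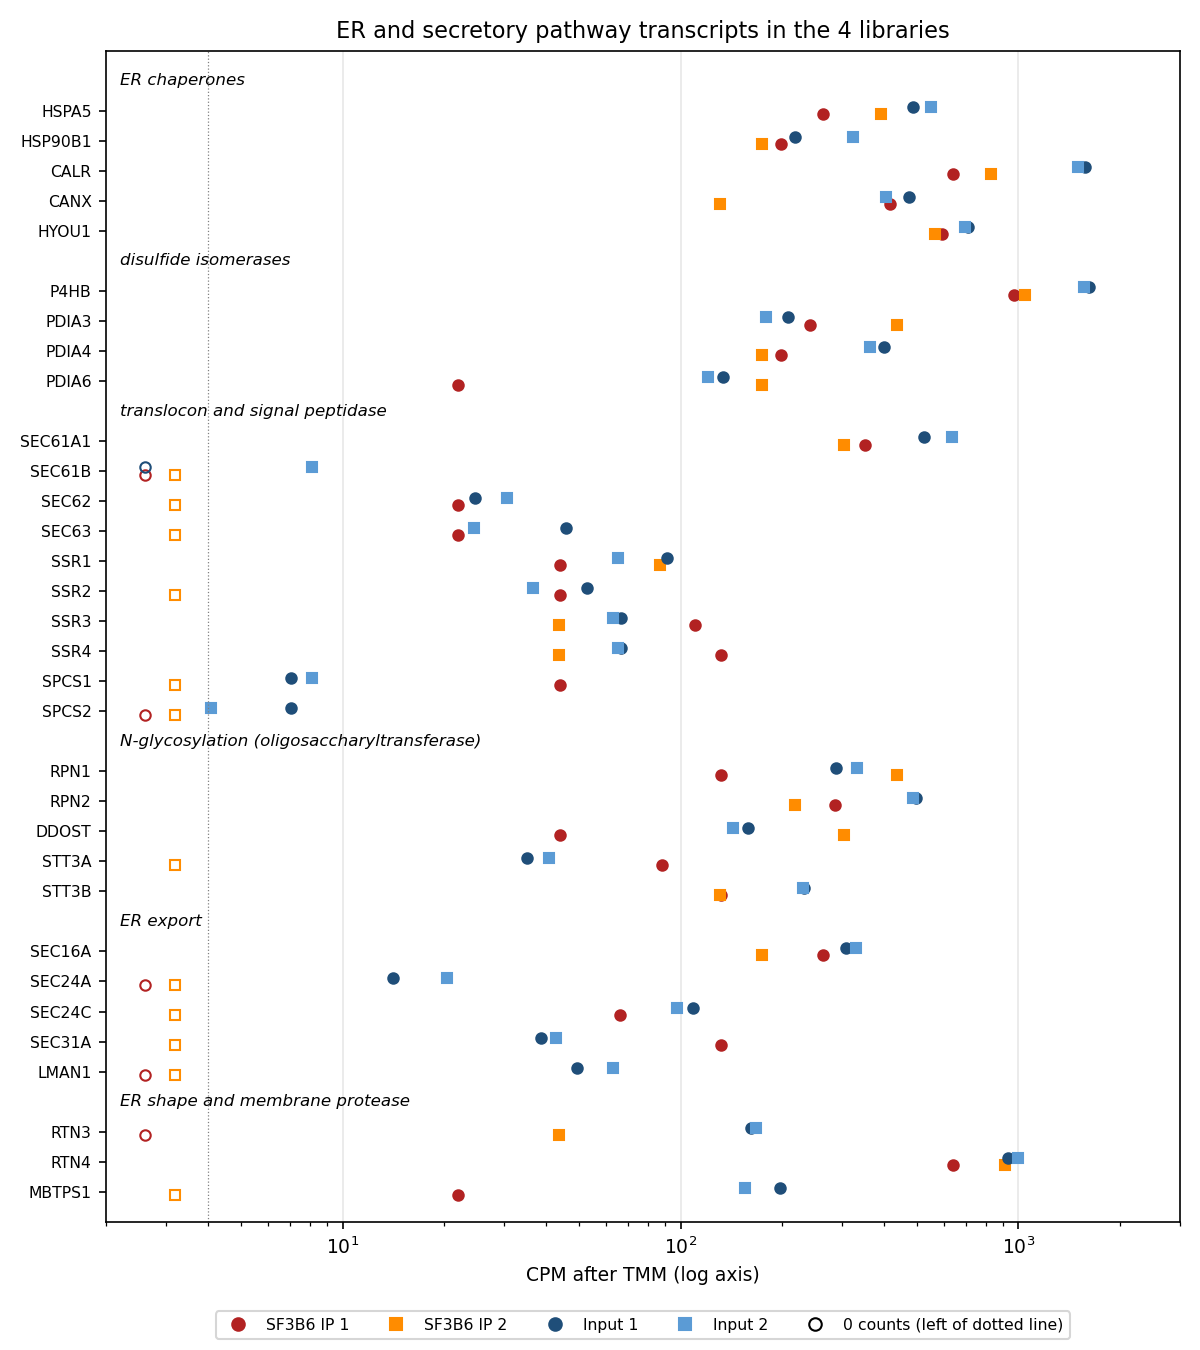
CPM after TMM (log axis) of each of the 32 transcripts in SF3B6 IP 1 and 2 (red circles, orange squares) and input 1 and 2 (dark blue circles, light blue squares), by role, with open marks for 0 counts. CALR and P4HB stand highest in both inputs (CALR at 1573 and 1498) and lower in both IP libraries, while most translocon transcripts lie far to the left, where 1 count in an IP library already gives 22.0 or 43.6.

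The number of calls depended on the scaling, which shifts all genes alike. The median of all tested genes was at -0.06 with TMM and -0.19 with the upper quartile. Library totals, here and below summed over the tested genes only, gave -0.31, and the totals behind the authors' FPKM values -1.65. All genes shifted with it, from 99 higher and 50 lower genes with TMM to 67 and 69 by the upper quartile, 56 and 90 by library totals and 17 and 2094 by the FPKM totals. Of the 22 tested, 3, 4, 5 and 19 were lower in these fits and 0 were higher in any. The 4 came where 1.88% of all tested genes were lower, the 5 where 2.45% were and the 19 where 57.1% were. With limma on log2(FPKM + 1) 18 of the 22 were lower, beside 62.0% of all tested genes. With no filter on low counts 9 of 32 were, beside 0.892% of 18276. Of those 18276 genes only 3668 passed the filter of the reported fit, as did 22 of the 32. These last shares thus also differ in depth, whose part was not tested. The median of the 22 was at -0.62, -0.76, -0.87 and -2.22 under the 4 scalings. A scaling moves the 22 and all genes together, so their place below the median of all genes is 1 result and not 4. With no filter, the median of the 32 (-1.20) was above that of all genes (-1.23). Fits without 1 library called 1 of the 32 without SF3B6 IP 1, 3 without SF3B6 IP 2, and 1 each without input 1 or input 2, among 27, 27, 15 and 15 tested. Of all genes tested in these fits 0.238%, 1.13%, 0.790% and 0.410% were lower.

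**Figure D2:**
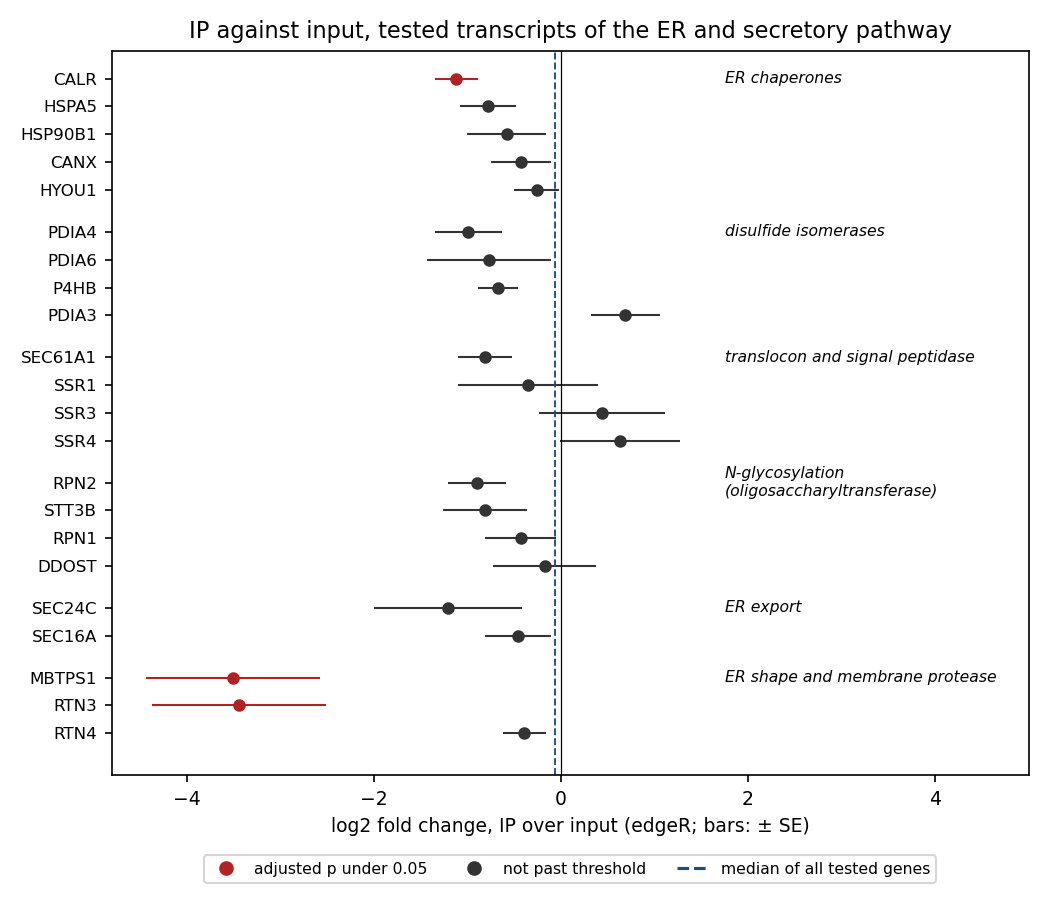
Log2 fold change of IP over input for the 22 tested transcripts by role (points, edgeR with TMM; bars show the SE; 2 libraries in each group). The 3 red points, CALR, MBTPS1 and RTN3, passed the threshold, and 19 of the 22 lie left of 0, with the dashed line at the median of all tested genes (-0.06); the places of MBTPS1 and RTN3, with 1 IP count each, depend on the fit's prior count.

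The ER chaperones were the best counted role and lay below 0 in 5 of 5, beside 53.4% of all tested genes. Of the 5 CALR alone fell, where 1.36% of all tested genes were lower. Their counts made up 0.173% and 0.158% of the IP libraries and 0.311% and 0.328% of the inputs. CALR encodes calreticulin, a lectin chaperone of the lumen that binds new glycoproteins and holds calcium. It lies on chromosome 19 from 12938609 to 12944489 (GRCh38.p14, as are all coordinates below). For CALR 29 counts came from SF3B6 IP 1, 19 from SF3B6 IP 2, 447 from input 1 and 735 from input 2. After scaling these were 639 and 828 CPM in IP and 1573 and 1498 CPM in input, or 733 ± 134 against 1535 ± 52.7 (SD, n = 2 libraries each). Every IP value lay well under every input value. CALR fell 2.17-fold, with a log2 fold change of -1.12 ± 0.23 (SE) and an edgeR adjusted p of 0.00241. It passed without each library in turn, with log2 fold changes from -1.36 to -1.02. DESeq2 gave -1.08 with an adjusted p of 0.0504, and the adjusted p ran from 8.97e-09 to 0.0706 over 16 alternatives, 14 of them past the threshold.

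HSPA5 encodes BiP, the Hsp70 of the ER lumen, and was at 264 and 392 CPM in IP and 489 and 552 CPM in input. Both IP values were under both inputs, but the log2 fold change of -0.78 ± 0.30 did not pass (edgeR adjusted p = 0.162). HSP90B1, the Hsp90 of the lumen, was at 198 and 174 CPM in IP and 218 and 324 CPM in input (-0.58 ± 0.42, adjusted p = 0.538). These groups did not overlap, with SF3B6 IP 1 close to input 1. HYOU1, the exchange factor of BiP known from hypoxia, was at 595 and 566 CPM in IP and 711 and 695 CPM in input (-0.26 ± 0.24, adjusted p = 0.650). This was the smallest of the chaperone differences, with libraries of a group closer to each other than to the other group. CANX encodes calnexin, the membrane-bound counterpart of calreticulin. It was at 418 and 131 CPM in IP and 475 and 406 CPM in input (-0.43 ± 0.32, adjusted p = 0.559). The IP libraries of CANX disagreed, with SF3B6 IP 1 inside the input range and only SF3B6 IP 2, on 3 counts, low.

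The promoters were searched for the ERSE and a related element. The ERSE is known from ER chaperone genes, as described above, so matches in them are no independent result. The ERSE, which is CCAAT, then 9 bases of any kind, then CCACG, on either strand, was looked for in the first promoter window that the RefSeq table lists for each gene, from 250 bases before to 50 after a transcription start. For CANX, with 4 windows in the table, that start lies 20273 bases inside the span of the gene. It lies 88140 bases inside for RTN4 (8 windows) and 5227 for PDIA6 (2 windows). Other windows were not searched, so a gene without a match may hold it elsewhere. Of the 32 genes 28 matched the table by symbol, all but PDIA3, SPCS1, RPN1 and STT3B. The ERSE occurred in 4 of the 28, HSPA5, HSP90B1, CALR and CANX, and in 0.0806% of all 27305 genes with a window. The related ERSE-II, which is ATTGG, then 1 base of any kind, then CCACG, on either strand, occurred in HYOU1 and in 0.0549% of all genes with a window. The following stretches show these matches in capitals with the bases around them, on the strand of the gene (RefSeq, GRCh38.p14), because all the matches found among the 28 were in chaperone genes. No other motif was searched. A capital stretch that starts with CGTGG is a match on the other strand.
HSPA5, chr9:125241371-125241429, minus strand: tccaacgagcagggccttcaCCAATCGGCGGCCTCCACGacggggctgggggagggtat
HSP90B1, chr12:103930196-103930359, plus strand: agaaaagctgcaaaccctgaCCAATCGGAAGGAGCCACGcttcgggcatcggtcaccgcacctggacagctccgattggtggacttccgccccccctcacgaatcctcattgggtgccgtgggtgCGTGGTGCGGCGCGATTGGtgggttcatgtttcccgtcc
CALR, chr19:12938364-12938422, plus strand: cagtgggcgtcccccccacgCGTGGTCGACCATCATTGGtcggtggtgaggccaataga
CANX, chr5:179698758-179698816, plus strand: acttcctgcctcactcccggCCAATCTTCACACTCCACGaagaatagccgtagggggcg
HYOU1, chr11:119057254-119057410, minus strand: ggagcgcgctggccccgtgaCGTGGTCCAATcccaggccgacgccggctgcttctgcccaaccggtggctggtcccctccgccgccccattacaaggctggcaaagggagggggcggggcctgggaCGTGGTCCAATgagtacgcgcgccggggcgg
HSP90B1 holds the ERSE once on each strand, and HYOU1 holds the ERSE-II at 2 places. The 5 genes with such a match had log2 fold changes from -1.12 (CALR) to -0.26 (HYOU1). The 17 other tested transcripts ran from MBTPS1 at -3.50, on 1 IP count, to PDIA3 at 0.69. They include PDIA3, RPN1 and STT3B, which had no window to search, so their range is not that of genes without a match. Transcription was not measured in these libraries, so the matches are a description of the promoters.

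The disulfide isomerases form and rearrange disulfide bonds in the lumen. Of the 4, 3 lay below 0, beside 53.4% of all tested genes, and 0 passed the threshold by edgeR or DESeq2. At an unadjusted edgeR p under 0.05, 2 were lower, P4HB and PDIA4, where 7.72% of all tested genes were. P4HB encodes protein disulfide isomerase itself, also the beta subunit of collagen prolyl 4-hydroxylase, and had the most counts of all 32. It lies on chromosome 17 from 81843166 to 81860535. Of its counts 44 and 24 were in the IP libraries, beside 460 and 766 in the inputs. It was at 969 and 1046 CPM in IP and 1618 and 1561 CPM in input, or 1007 ± 54.4 against 1589.9 ± 40.3 (SD, n = 2 each). The gap between the groups was wide beside the spread within them, yet with 2 libraries each the log2 fold change of -0.67 ± 0.21 did not pass (edgeR adjusted p = 0.0745). P4HB passed with upper quartile scaling (-0.81, adjusted p = 0.0329), with library totals (-0.92, 0.0213) and without SF3B6 IP 2 (-0.81, 0.0238). Over all 16 alternatives its adjusted p ran from 1.28e-05 to 0.428.

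PDIA4, an isomerase with an extra active domain, was at 198 and 174 CPM in IP and 401 and 363 CPM in input (-0.99 ± 0.36, adjusted p = 0.131). The groups did not overlap. PDIA6 was at 22.0 and 174 CPM in IP and 134 and 120.3 CPM in input, on 1 and 4 IP counts. Its IP values straddled the inputs, and its log2 fold change of -0.77 ± 0.66 (adjusted p = 0.622) became 0.26 without SF3B6 IP 1. PDIA3, the isomerase that works with calreticulin and calnexin on glycoproteins, was at 242 and 436 CPM in IP and 208 and 179 CPM in input. It was the one tested transcript of the 22 with both IP values above both inputs. Its log2 fold change of 0.69 ± 0.37 did not pass (adjusted p = 0.352). By the FPKM totals it turned to -0.88, where the median of all genes moved with it to -1.65. PDIA3 has pseudogene copies, of which PDIA3P1 was counted 0 and 1 times in IP and 1 and 2 times in input and PDIA3P2 at most 1 time in a library. How reads that match several copies were shared was not given.

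Among the 10 transcripts of the translocon and signal peptidase, SEC61A1 carried most of the counts and 6 could not be tested. Of the 4 tested, 2 lay below 0, beside 53.4% of all tested genes, and 0 passed by edgeR. DESeq2 gave an adjusted p for 1 of them and called 0. SEC61A1 alone was lower at an unadjusted edgeR p under 0.05, where 7.72% of all tested genes were. SEC61A1 encodes the pore of the channel through which nascent chains enter the ER. It was counted 16 and 7 times in IP, against 149 and 311 times in the inputs, which gave 352 and 305 CPM in IP and 524 and 634 CPM in input. Both IP values were under both inputs, with a log2 fold change of -0.81 ± 0.29 (edgeR adjusted p = 0.127).

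The SSR genes encode the translocon-associated protein complex, which assists some signal sequences. SSR1 was at 44.0 and 87.1 CPM in IP and 91.5 and 65.2 CPM in input (-0.35 ± 0.75, edgeR adjusted p = 0.894). SSR3 was at 110.1 and 43.6 CPM in IP and 66.8 and 63.2 CPM in input (0.44 ± 0.67, adjusted p = 0.841). SSR4 was at 132 and 43.6 CPM in IP and 66.8 and 65.2 CPM in input (0.63 ± 0.64, adjusted p = 0.702). In all 3 the IP values overlapped or straddled the inputs, and the positive signs of SSR3 and SSR4 rested on SF3B6 IP 1: without it they were at -0.78 and -0.81. Both were also below 0 with the FPKM totals, at -1.16 and -0.98.

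The remaining translocon and peptidase transcripts had at most 2 counts in an IP library. In IP and in input, SSR2 was counted 2 and 0 and 15 and 18 times, SEC62 1 and 0 and 7 and 15 times, and SEC63, the partner of SEC62 in post-translational transport, 1 and 0 and 13 and 12 times. Their ratios of pooled counts, IP over input after scaling, were 0.687 (exact 95% interval 0.0799 to 2.69), 0.515 (0.0125 to 3.19) and 0.453 (0.0110 to 2.77). SPCS1, of signal peptidase, was counted 2 and 0 times in IP and 2 and 4 times in the inputs, a ratio of 3.78 (0.373 to 21.1). All 4 intervals include 1, so no difference was detectable at this depth. SPCS2 had 0 IP counts and 2 in each input, and SEC61B, a small subunit of the channel, had 0 IP counts and 0 and 4 in input, both under what 3 counts in IP would allow.

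The oligosaccharyltransferase moves a preformed glycan onto asparagine residues of proteins as they enter the ER. Of its 5 transcripts, 4 were tested, all below 0, beside 53.4% of all tested genes, and 0 passed the threshold by edgeR or DESeq2. RPN2 alone was lower at an unadjusted edgeR p under 0.05, where 7.72% of all tested genes were. RPN2 (ribophorin II) was at 286 and 218 CPM in IP and 496 and 489 CPM in input. The groups were well apart, and the log2 fold change was -0.90 ± 0.31 (edgeR adjusted p = 0.109). It passed with library totals (-1.15, adjusted p = 0.0428), in a range from 7.57e-07 to 0.490 over 16 alternatives. RPN1 (ribophorin I) was at 132 and 436 CPM in IP and 289 and 332 CPM in input (-0.43 ± 0.38, adjusted p = 0.642). Its IP values straddled the inputs, and without SF3B6 IP 1 the log2 fold change was 0.25.

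STT3B, one of the catalytic subunits, was at 132 and 131 CPM in IP and 232 and 230.3 CPM in input, on 6 and 3 IP counts (-0.81 ± 0.45, edgeR adjusted p = 0.374). The close match of its libraries within a group is finer than counts of 6 and 3 can resolve. STT3A, the other catalytic subunit, was counted 4 and 0 times in IP and 10 and 20 times in the inputs, and was not tested (ratio 1.51, exact interval 0.387 to 4.29). DDOST was at 44.0 and 305 CPM in IP and 158 and 143 CPM in input (-0.17 ± 0.55, adjusted p = 0.940). Its mean over IP, 175 CPM, was above that over input, 151 CPM, while the fit, which weighs libraries by depth, was below 0. Without SF3B6 IP 1 the log2 fold change of DDOST was 0.82. Both RPN1 and DDOST, like PDIA6, were thus high in SF3B6 IP 2 and low in SF3B6 IP 1.

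ER export by COPII vesicles was sparsely counted, and of 5 transcripts 2 were tested and 0 passed by edgeR, with 0 at an unadjusted p under 0.05. DESeq2 gave an adjusted p for 1 of them and called 0. SEC16A, which marks the exit sites of the ER, was at 264 and 174 CPM in IP and 309.6 and 330.2 CPM in input (-0.46 ± 0.35, edgeR adjusted p = 0.564). Its groups did not overlap. SEC24C, a cargo-binding coat subunit, was counted 3 and 0 times in IP and 31 and 48 times in the inputs, a ratio of pooled counts of 0.430 (exact interval 0.0869 to 1.30; edgeR adjusted p = 0.477). SEC31A, of the outer coat, was counted 6 and 0 times in IP and 11 and 21 times in the inputs (ratio 2.13, 0.726 to 5.15). LMAN1, the cargo receptor for some glycoproteins, had no IP count, beside 14 and 31 in the inputs, and was at least 1.32-fold lower, taking 3 counts over both IP libraries as the limit. SEC24A had no IP count, beside 4 and 10 in the inputs, which is under that limit. SEC31A, LMAN1 and SEC24A were not tested.

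MBTPS1 and RTN3 fell, but both entered the test through the inputs alone and so could be called only as lower. RTN4, the best counted transcript of this last role, did not pass. MBTPS1 encodes the site-1 protease of the Golgi, which cuts the membrane-bound factors SREBP and ATF6 to release them, and lies on chromosome 16 from 84053763 to 84116942. SF3B6 IP 1 held 1 count of it and SF3B6 IP 2 held 0, while input 1 held 56 and input 2 held 76. The ratio of pooled counts was 0.0859 (exact 95% interval 0.00216 to 0.487), and the edgeR adjusted p was 0.0221. RTN3 encodes a reticulon, one of the hairpin proteins that bend ER tubules, and lies on chromosome 11 from 63681450 to 63759891. It was counted 0 and 1 times in IP and 46 and 82 times in the inputs, a ratio of 0.0885 (0.00222 to 0.502; edgeR adjusted p = 0.0260).

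Both calls rest on a near absence of IP counts against 132 input counts of MBTPS1 and 128 of RTN3. DESeq2 gave an adjusted p for neither. Neither call held without SF3B6 IP 1 (adjusted p = 0.187 for MBTPS1 and 0.560 for RTN3). Without SF3B6 IP 2 MBTPS1 was at 0.0557 and RTN3 at 0.00532. Without input 1 or input 2 neither passed the filter on low counts. The block on replicate numbers gave 0.0300 for MBTPS1 and 0.0541 for RTN3, and over all alternatives their adjusted p ran from 0.000112 to 0.187 and from 2.1e-06 to 0.560.

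RTN4 encodes Nogo, another reticulon, and was counted 29 and 21 times in IP, beside 265 and 489 times in the inputs. It was at 639 and 915 CPM in IP and 932 and 997 CPM in input, with SF3B6 IP 2 just under input 1. Its log2 fold change was -0.39 ± 0.23 (edgeR adjusted p = 0.407). Whether RTN3 and RTN4 differ from each other in recovery was not tested.

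Levels between genes can be set side by side only per length, and the authors' FPKM (a level per transcript length and library total) gave this order. The length taken for each gene was not stated, and the order rests on it. In input 2, 735 counts of CALR stood at 103 FPKM and 766 counts of P4HB at 27.0 FPKM. CALR was the highest in both inputs, at 75.2 and 103 FPKM, and in both IP libraries, at 13.7 and 13.5 FPKM. RPN2 came next in both inputs (24.6 and 34.9 FPKM). RTN4 (18.8 and 28.9 FPKM), P4HB (19.5 and 27.0 FPKM), SEC61A1 (15.1 and 26.3 FPKM) and PDIA4 (16.3 and 21.2 FPKM) followed, in an order that differed between the inputs. The input values of these 5 overlapped from each to the next. In IP RPN2, RTN4, P4HB, SEC61A1 and PDIA4 were at 6.35 and 3.69, 5.76 and 6.31, 5.22 and 4.30, 4.55 and 3.01, and 3.60 and 2.42 FPKM. The order within IP again placed CALR first, well above the rest. The low end of both inputs held SPCS1 (0.18 and 0.31 FPKM), SPCS2 (0.32 and 0.26 FPKM) and SEC24A (0.26 and 0.54 FPKM). SEC61B was listed at 0 in input 1 but at 1.30 FPKM in input 2, above these.

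**Figure D3:**
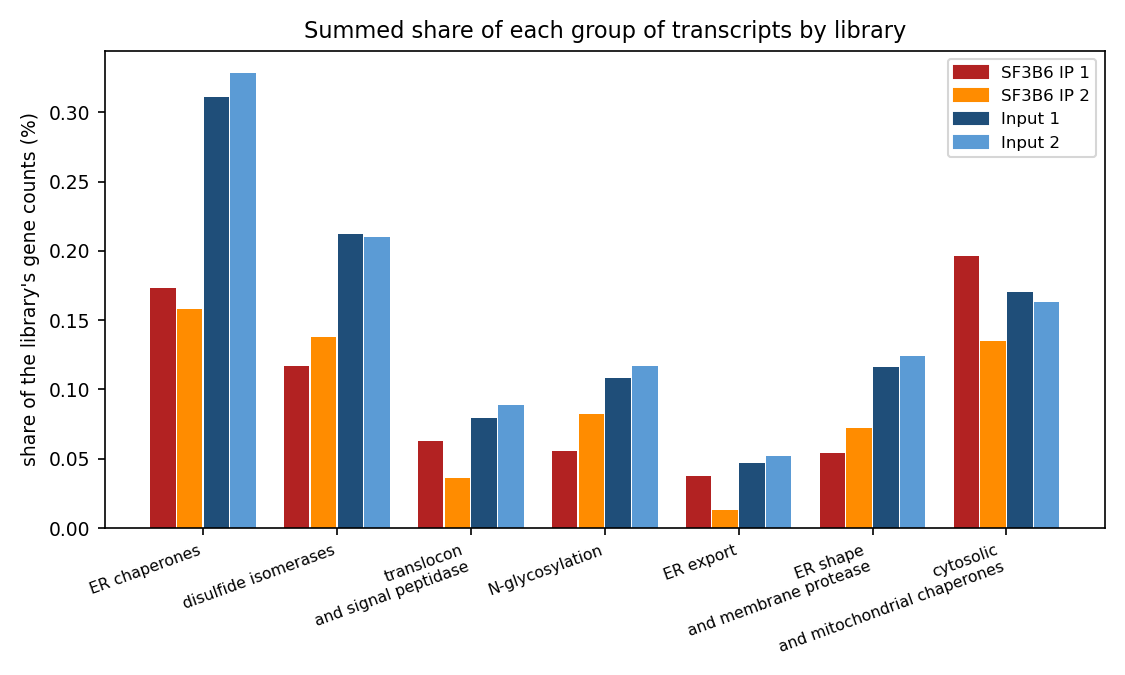
Share of each library's gene counts (%) taken by the summed transcripts of each role and by 24 cytosolic and mitochondrial chaperone genes, in SF3B6 IP 1 and 2 (red, orange) and input 1 and 2 (dark and light blue). In all 6 roles both IP bars are below both input bars, while those of the cytosolic and mitochondrial chaperones overlap (0.196% and 0.135% in IP, 0.170% and 0.163% in input).

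Further genes of the same pathway, 131 by list of which 130 are in the table, were read beside these. This list, too, was chosen with earlier results of these data known, so its counts are a description. Of them 65 were tested and 0 passed by edgeR in either direction. DESeq2 gave an adjusted p for 40 of them and called 0. At an unadjusted edgeR p under 0.05, 15 were lower and 0 higher, where 7.72% and 7.93% of all tested genes were. Their median log2 fold change was -0.42, and 49 of 65 lay below 0, beside 53.4% of all tested genes. Of the 65, 8 had entered the test through the inputs alone and could come out only as lower. ER co-chaperones and thiol enzymes had the lowest median of these lists, -0.61 over 17 tested, with 16 below 0 and 6 at an unadjusted p under 0.05, all lower. TXNDC5, a disulfide isomerase, was at -0.93 ± 0.30 (edgeR adjusted p = 0.0845) on 14 and 6 IP and 141 and 293 input counts. SERPINH1, the collagen chaperone of the ER, was at -0.79 ± 0.28 (0.119). Genes of membrane shape and of the site-1 pathway had a median of -0.51 over 8, among them SCAP, which carries SREBP to the site-1 protease (-0.88 ± 0.30, 0.105). MBTPS2, the site-2 protease that cuts after the site-1 protease, was at 0.76 ± 0.70 (0.656).

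The unfolded protein response and ER-associated degradation had a median of -0.42 over 11 tested genes, with XBP1 at -0.18 ± 0.58 (edgeR adjusted p = 0.939). N-glycosylation enzymes outside the oligosaccharyltransferase core had a median of -0.20 over 8, targeting and translocon genes -0.17 over 9, and ER export and return -0.11 over 12. GANAB, a glucosidase that trims new glycans for calnexin and calreticulin, was at -0.75 ± 0.27 (0.118), and SURF4, a cargo receptor, at -0.74 ± 0.27 (0.127). RRBP1, a ribosome-binding ER protein, was the best counted of all, with 60 and 36 IP and 648 and 956 input counts (-0.57 ± 0.21, 0.134).

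Chaperones outside the ER were read as a contrast, from a list also chosen with earlier results of these data known. Of 24 genes of cytosolic and mitochondrial chaperones, 15 were tested and 0 passed by edgeR. DESeq2 gave an adjusted p for 4 of them and called 0. At an unadjusted edgeR p under 0.05, 1 was higher and 1 lower, where 7.93% and 7.72% of all tested genes were. Their median log2 fold change was 0.16, against -0.58 for the ER chaperones. Below 0 lay 6 of 15, against 5 of 5 of the ER chaperones and 53.4% of all tested genes. HSP90AA1, the inducible cytosolic Hsp90, was the highest, at 1.24 ± 0.40 (edgeR adjusted p = 0.0839), with 15 and 5 IP and 33 and 63 input counts. The other cytosolic Hsp90, HSP90AB1, was at 0.06 ± 0.38 (0.972), and the ER relative HSP90B1 at -0.58 ± 0.42. CCT3 was the lowest, at -1.85 ± 0.86 (0.285), on 1 count in each IP library. HSPA8, the constitutive cytosolic Hsp70, was at -0.19 ± 0.40 (0.887), beside -0.78 ± 0.30 for HSPA5. These chaperones were less well counted, at a median of 61 input counts against 410 for those of the ER. The difference between the lists was not tested, and depth was not taken out of it.

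**Figure D4:**
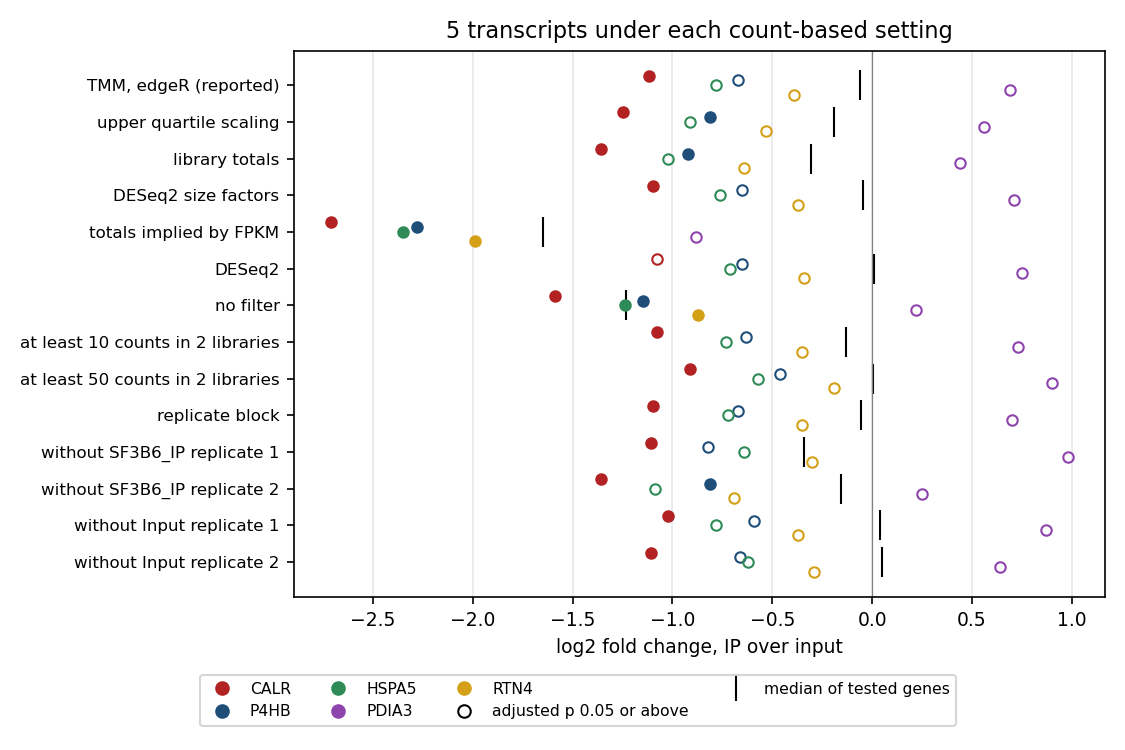
Log2 fold change of IP over input for CALR, P4HB, HSPA5, PDIA3 and RTN4 (coloured points; filled where the adjusted p was under 0.05) under each count-based setting, with the median of all tested genes as a black bar. CALR is leftmost of the 5 in every setting and PDIA3 rightmost. A change of scaling alone, such as the totals implied by FPKM (median of all genes -1.65), moves all points together, so the order there is no further result.

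RefSeq spans of several of these genes overlap other genes, and the strand setting of the counts was not stated, so reads of overlapping genes may have been shared. SEC61A1 overlaps RUVBL1, which had 3 and 0 IP and 8 and 7 input counts. PDIA6 overlaps ATP6V1C2 (0 and 0 IP, 3 and 1 input counts), SPCS1 overlaps NEK4 (1 and 0 IP, 4 and 7 input counts) and DDOST overlaps PINK1-AS (0 and 2 IP, 9 and 16 input counts). SSR4 overlaps IDH3G (2 and 0 IP, 10 and 9 input counts). For SPCS1 the partner had more input counts than the gene itself, so its counts are uncertain, as to a lesser degree are those of DDOST and SSR4, whereas the counts of SEC61A1 and PDIA6 were many times those of their partners.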

How the data were processed

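For every gene the authors deposited raw counts and, in a second table, FPKM, with 1 column for each library. The submitters' processing notes list HISAT2, HOMER and hg38 without saying what each did. Counting tool, strandedness and the handling of multiply matching reads were details not given in the sources used here. IP and input have no common absolute scale, so fold changes are relative to all other transcripts of a library.

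Counts were compared with edgeR 4.0.16 in R 4.3.3 (TMM, default expression filter, quasi-likelihood test, group as the one term, Benjamini-Hochberg at 0.05). The code was run on simulated data drawn from the input means with the same dispersion in all libraries. These lack the larger spread between the IP libraries, so the run does not show error rates for the real data. Each SE is the absolute log2 fold change over the root of F. Library totals behind FPKM were recovered as ratios, from counts over FPKM of genes with at least 20 counts and 0.5 FPKM in both libraries: 0.297, 0.197 and 0.833 of input 2 for SF3B6 IP 1, SF3B6 IP 2 and input 1. DESeq2 1.42.0 was run on the same genes, and limma 3.58.1 on log2(FPKM + 1). Within a group, libraries were not duplicates of each other (chi-square per degree of freedom 4.33 for IP and 1.72 for input), and each is 1 replicate. The cell line entries differ in their last digit, and the titles were used. Named genes are all 32 members; those called, CALR, P4HB and the 2 best counted of each role were described in full. The members and lists were chosen with earlier results of these data known.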

Additional observations from a re-analysis of the deposited data

How the results depend on the processing

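The number of calls changed with the setting. Genes higher and lower in IP numbered 99 and 50 with the reported fit. They were 56 and 90 with library totals, 17 and 2094 with the totals implied by FPKM, 37 and 2 with DESeq2 and 50 and 163 with no filter. With at least 50 counts in 2 libraries 25 were lower, and with the replicate block 22 were lower. On log2(FPKM + 1) they were 27 and 2273, on log2(FPKM + 0.1) 15 and 1675, and on log2(FPKM + 1) with no filter 0 and 0 (limma). Leaving out 1 library gave 26 to 94 higher and 5 to 70 lower genes. Of the ER and secretory transcripts 3 were lower, against 5 with library totals, 19 with the FPKM totals, 0 with DESeq2, 9 with no filter, 18 on both filtered log2(FPKM) scales, 0 on the unfiltered one and 1 to 3 without 1 library. DESeq2 gave CALR an adjusted p of 0.0504 and gave none for MBTPS1 and RTN3. The replicate block ended the call of RTN3 (edgeR adjusted p = 0.0541) and left those of CALR and MBTPS1. Deviations of same-numbered libraries correlated at 0.000443 over 3668 genes, and 2 pairs do not settle a pairing.

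Signs changed for 6 transcripts, none of them called. PDIA3 was at -0.88 with the FPKM totals and at -0.73, -0.85 and -0.73 on log2(FPKM + 1), log2(FPKM + 0.1) and log2(FPKM + 1) with no filter. SSR3 was at -1.16 and at -0.77, -1.37 and -0.77 there, and at -0.03 with no filter on counts; SSR4 was at -0.98 and at -0.75, -1.29 and -0.75. DDOST was at 0.09 with DESeq2. Without 1 library PDIA6 ran from -2.58 to 0.26, SSR3 from -0.78 to 0.67, SSR4 from -0.81 to 0.91, RPN1 from -1.35 to 0.25 and DDOST from -1.84 to 0.82. The cause was not tested, except that fewer genes pass the filter without an input library. The tested transcripts had a median of 14.5 counts over both IP libraries.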

Other observations

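The IP libraries disagreed on single transcripts in both directions. CANX (19 and 3 counts in SF3B6 IP 1 and 2), SEC31A (6 and 0) and SSR4 (6 and 1) were counted mostly in SF3B6 IP 1. DDOST (2 and 7), RPN1 (6 and 10) and PDIA6 (1 and 4) were counted more in SF3B6 IP 2, although that library had 30431 counts against 55492. In the inputs these transcripts stood in a steadier ratio, for example 45 and 70 counts for DDOST and 82 and 163 for RPN1.

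Reads counted in genes made up less of the total behind FPKM in the IP libraries than in the inputs. Set to 1 in input 2, that share was 0.733 in input 1, 0.359 in SF3B6 IP 1 and 0.297 in SF3B6 IP 2. The FPKM values of all genes carry this shift, those of the ER and secretory transcripts included. What the authors took as that total was not stated.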
